A study of Mus musculus with 36 samples.

Results

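Cyp2c38, Cyp2c39, Cyp2c40, Cyp2c67, Cyp2c68, Cyp2c69 and Cyp2c70 are 7 cytochrome P450 genes of the mouse Cyp2c cluster. They were followed through liver RNA sequencing of 36 mice on 3 diets. The 7 genes were chosen by name from a deposited table of 53715 gene identifiers, of which 14068 had enough counts to be tested, and all 7 passed that filter. The table held 11 other Cyp2c genes, 7 of them above the filter. Together the 7 genes took 0.151% ± 0.020 (SD, n = 36) of all counts. All animals were male C57BL/6 mice sampled at 10 weeks of age, after 6 weeks on diet from the age of 4 weeks. The Control group ate the purified AIN93G diet with no tomato. The Red group ate a diet with 10% red tomato powder by weight, and the Tangerine group one with 10% tangerine tomato powder, a variety whose fruit carries lycopene in a different isomer form. Each group had 12 libraries, each from a differently numbered mouse.

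Cytochrome P450 enzymes of the CYP2C family sit in the membrane of the endoplasmic reticulum and add oxygen to fatty acids, steroids, retinoids, bile acids and drugs, with electrons supplied by P450 oxidoreductase. CYP2C38 and CYP2C39 convert arachidonic acid to epoxides, and CYP2C39 also hydroxylates retinoic acid. CYP2C40 hydroxylates arachidonic acid. CYP2C70 is the mouse liver enzyme that makes muricholic acids from chenodeoxycholic and ursodeoxycholic acid, which gives mice a bile acid pool more water-soluble than the human one. In rodent liver many P450 genes differ between the sexes under the male and female patterns of growth hormone secretion, and several Cyp2c genes are induced through the nuclear receptors CAR and PXR.

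Total counts per library ran from 21290169 to 33810573. The summed level of 8 hepatocyte markers lay between 91020 and 129687 CPM (counts relative to the TMM-scaled library total) in every library. Markers of other tissues or cell types stood out in several libraries. T cell markers summed to 153 CPM in Red mouse 186, against at most 3.78 in the others. Pancreas markers summed to 12.8 CPM in Tangerine mouse 216, against at most 0.429. Kidney markers summed to 24.1 CPM in Tangerine mouse 198, against at most 0.905. Cholangiocyte markers summed to 112 CPM in Tangerine mouse 192, against medians of 18.6 to 21.1 by diet. Endothelial markers were low in 1 Control mouse, at 44.3 CPM against a Control median of 139. The libraries also fell into 2 classes that no label names. The split was read from the 50 genes outside the Cyp2c family with the widest gaps in level between libraries, 41 of which divided the libraries in the same way. Class A had 20 libraries (8 Control, 4 Red and 8 Tangerine) and class B had 16 (4 Control, 8 Red and 4 Tangerine). In class A, genes rich in G and C were counted less than in the average library, with a slope of log2 level on GC content between -1.71 and -0.436. In class B the slope lay between -0.0269 and 2.97. The source of the classes was not tested, and because 8 of 12 Red libraries are of class B against 4 of 12 in each other diet, the diet comparisons and correlations below are also given with class taken into account.

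**Figure D1:**
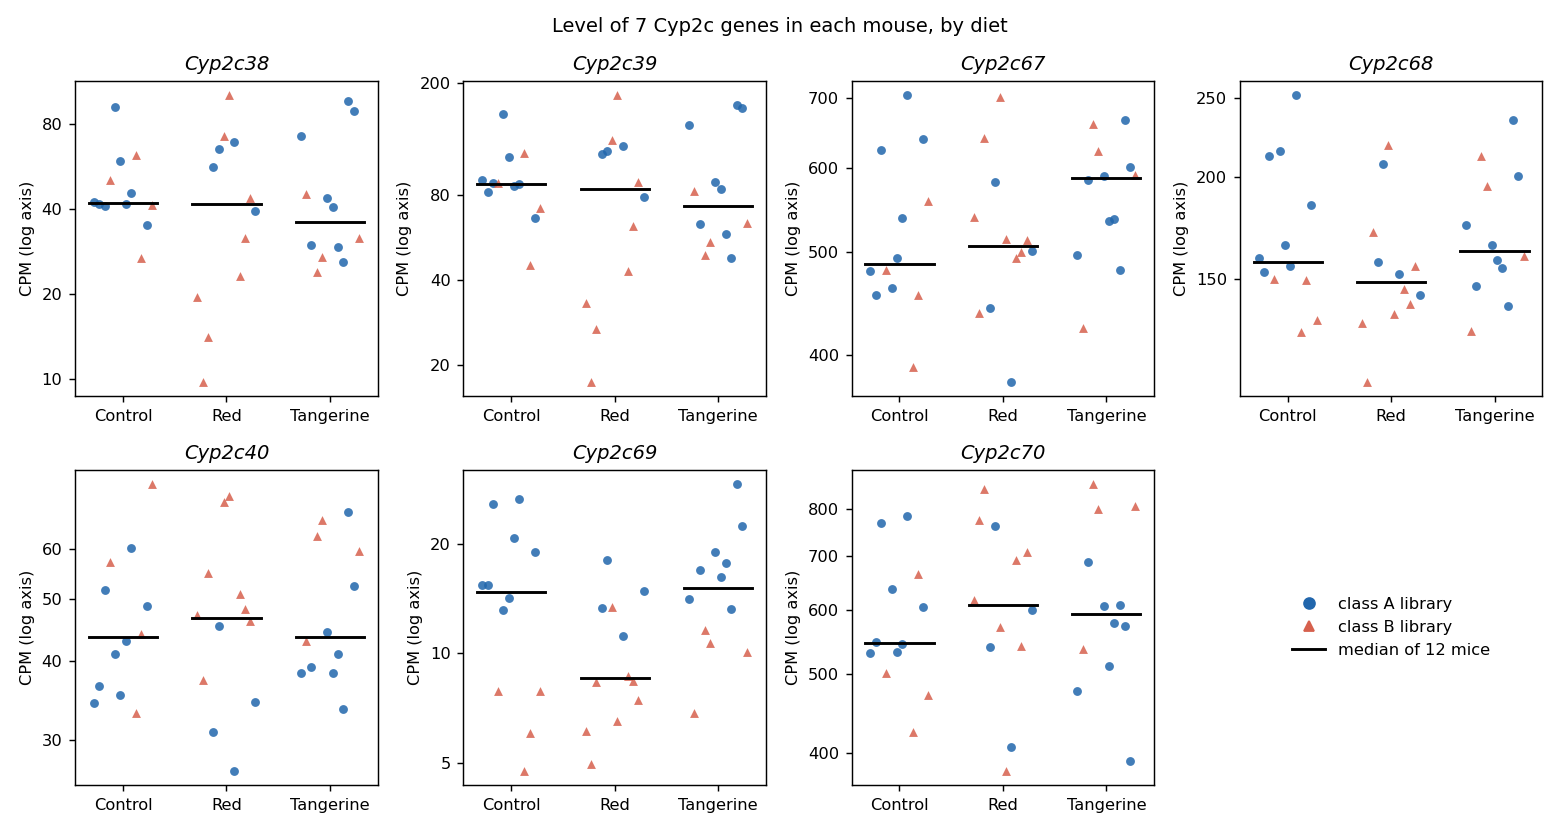
Level of each gene (CPM, log axis) in each mouse by diet, with symbols for the 2 library classes and a line at the median of 12 mice. The diets overlap for every gene, and for Cyp2c69 the class B libraries lie at 4.76 to 13.4 CPM against 11.2 to 29.2 in class A.

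The 7 genes lie on chromosome 19 (GRCm38.p6, GENCODE M21 annotation) within 797778 bases. Each main transcript has 9 exons, and no other annotated gene overlaps any of them. Cyp2c38 (chr19:39389556-39463075, minus strand) and Cyp2c39 (chr19:39510862-39568529, plus strand) are neighbours 47.8 kb apart. Then follow Cyp2c67 (chr19:39608842-39649051), Cyp2c68 (chr19:39688834-39741054), Cyp2c40 (chr19:39767071-39812814) and Cyp2c69 (chr19:39842814-39886799), all on the minus strand. These 4 genes fill a stretch of 277958 bases with no other annotated gene between them. Cyp2c70 (chr19:40153353-40187333, minus strand) lies 267 kb beyond Cyp2c69.

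Aligned over their main transcripts, Cyp2c38 and Cyp2c39 were 93.8% identical, with 113 mismatches in 1815 aligned bases. Within the 4-gene stretch all 6 pairs were 96.4% to 98.0% identical, and Cyp2c40 and Cyp2c69 differed at 37 of 1646 aligned bases. Between the Cyp2c38 and Cyp2c39 pair and the 4-gene stretch the identity was 78.2% to 79.9%, and Cyp2c70 shared 72.3% to 73.8% with any of the others. Of the 50-base stretches of the Cyp2c40 transcript, 72.1% also occur letter for letter in another gene, and 42.1% occur in Cyp2c69. The share was 54.8% for Cyp2c69, 52.8% for Cyp2c67, 43.3% for Cyp2c68, 12.0% for Cyp2c39, 7.45% for Cyp2c38 and 0 for Cyp2c70. At 100 bases the share was still 44.1% for Cyp2c40 and 36.3% for Cyp2c69, and 0 for Cyp2c38, Cyp2c39 and Cyp2c70. The labels give neither the read length nor the way reads that match several genes were counted, so the levels of Cyp2c40, Cyp2c67, Cyp2c68 and Cyp2c69 are uncertain as gene-specific values.

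The promoters are shown because the genes of the 4-gene stretch are near copies there as well and the others are not. CAAAGTCCA, a sequence of the type bound by the hepatocyte nuclear factor HNF4A, was searched on both strands of the RefSeq promoter windows (250 bases before to 50 after each gene start, GRCm38.p6). It occurs in 156 of 32851 windows (0.475%) and in 5 of the 7 genes, those of the 4-gene stretch and Cyp2c70. Near matches were looked for only on the strand of the gene. The best such match in Cyp2c39 differs from it by C8T, and in Cyp2c38 by C7T and C8T. Positions are counted from 1 at the first base of CAAAGTCCA. TTCNNNGAA, of the type bound by STAT5, occurs in 8.3% of all windows and in none of these 7. The letters are a description of the windows and carry no evidence of binding. Below, each stretch runs 5′ to 3′ on the strand of its gene, with the best match to CAAAGTCCA on that strand in capitals.
Cyp2c38 (chr19:39463148-39463216, minus strand): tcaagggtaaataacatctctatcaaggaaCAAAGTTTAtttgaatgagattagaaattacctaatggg
Cyp2c39 (chr19:39510706-39510774, plus strand): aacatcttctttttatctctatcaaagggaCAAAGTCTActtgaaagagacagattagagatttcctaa
Cyp2c67 (chr19:39649129-39649197, minus strand): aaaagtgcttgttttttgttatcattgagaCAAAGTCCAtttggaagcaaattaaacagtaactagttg
Cyp2c68 (chr19:39741140-39741208, minus strand): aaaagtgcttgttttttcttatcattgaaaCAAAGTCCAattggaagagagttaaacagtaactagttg
Cyp2c40 (chr19:39812821-39812889, minus strand): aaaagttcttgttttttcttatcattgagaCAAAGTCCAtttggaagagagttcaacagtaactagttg
Cyp2c69 (chr19:39886806-39886874, minus strand): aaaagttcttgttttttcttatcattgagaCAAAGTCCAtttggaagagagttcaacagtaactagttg
Cyp2c70 (chr19:40187312-40187380, minus strand): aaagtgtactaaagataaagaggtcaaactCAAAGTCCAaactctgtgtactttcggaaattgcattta
Over these 69 bases Cyp2c40 and Cyp2c69 are identical, and the other pairs of the 4-gene stretch share 91.3% to 94.2% of aligned bases. Cyp2c38 and Cyp2c39 share 76.2%, about as much as Cyp2c39 shares with the stretch (75% to 76.6%). Cyp2c70 shares 64.4% to 68.3% with the others.

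Per kilobase of exon, Cyp2c67 and Cyp2c70 were the most abundant of the 7 genes. Cyp2c67 had 309.9 CPM per kb ± 49.1 and Cyp2c70 had 307.2 ± 66.1 (SD, n = 36). The order of these neighbours was not fixed, since Cyp2c67 was the higher in 18 of 36 mice. Cyp2c68 followed at 96.8 CPM per kb ± 19.2, below Cyp2c70 in all 36 mice. Cyp2c39 had 48.1 ± 22.0 and was below Cyp2c68 in 35 of 36 mice. The 3 least abundant genes were Cyp2c40 at 23.4 ± 6.29, Cyp2c38 at 16.2 ± 8.05 and Cyp2c69 at 7.90 ± 3.67. Cyp2c39 was above Cyp2c40 in 30 of 36 mice, Cyp2c40 above Cyp2c38 in 28, and Cyp2c38 above Cyp2c69 in 34. The ranges of mean ± SD overlap between Cyp2c67 and Cyp2c70, Cyp2c39 and Cyp2c40, Cyp2c40 and Cyp2c38, and Cyp2c38 and Cyp2c69.

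The question of the study design is whether red or tangerine tomato powder alters liver gene expression. None of the 7 genes passed an adjusted p of 0.05 in any of the comparisons of diets (edgeR quasi-likelihood test, Benjamini-Hochberg adjustment over 14068 genes). Among all genes, 0.149% were called for Red against Control, 0.0142% for Tangerine against Control, 1.71% for Tangerine against Red, 0.00711% for both tomato diets against Control, and 1.18% for any difference among the diets. None was called either without Red 186 and Tangerine 216, or without Tangerine 198. At an unadjusted p under 0.05 the 7 genes numbered 1, 0, 1, 0 and 1 in these 5 comparisons, in each case Cyp2c69. Over all genes the unadjusted shares were 13.3%, 5.47%, 15.1%, 6.77% and 13.9%. The median log2 fold change of the 7 genes was -0.09 in Red and 0.07 in Tangerine, each against Control, and 0.09 between Tangerine and Red. Over all genes it was -0.0047, -0.012 and -0.0046. With library class as a covariate, none of the 7 genes was called either, and 0.192%, 0.0213%, 1.39%, 0.00711% and 0.732% of all genes were, in the same order. By limma-voom with sample weights, Cyp2c69 was called in Red against Control (log2 fold change -0.69, adjusted p = 0.0472), where 10.7% of all genes were called.

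**Figure D2:**
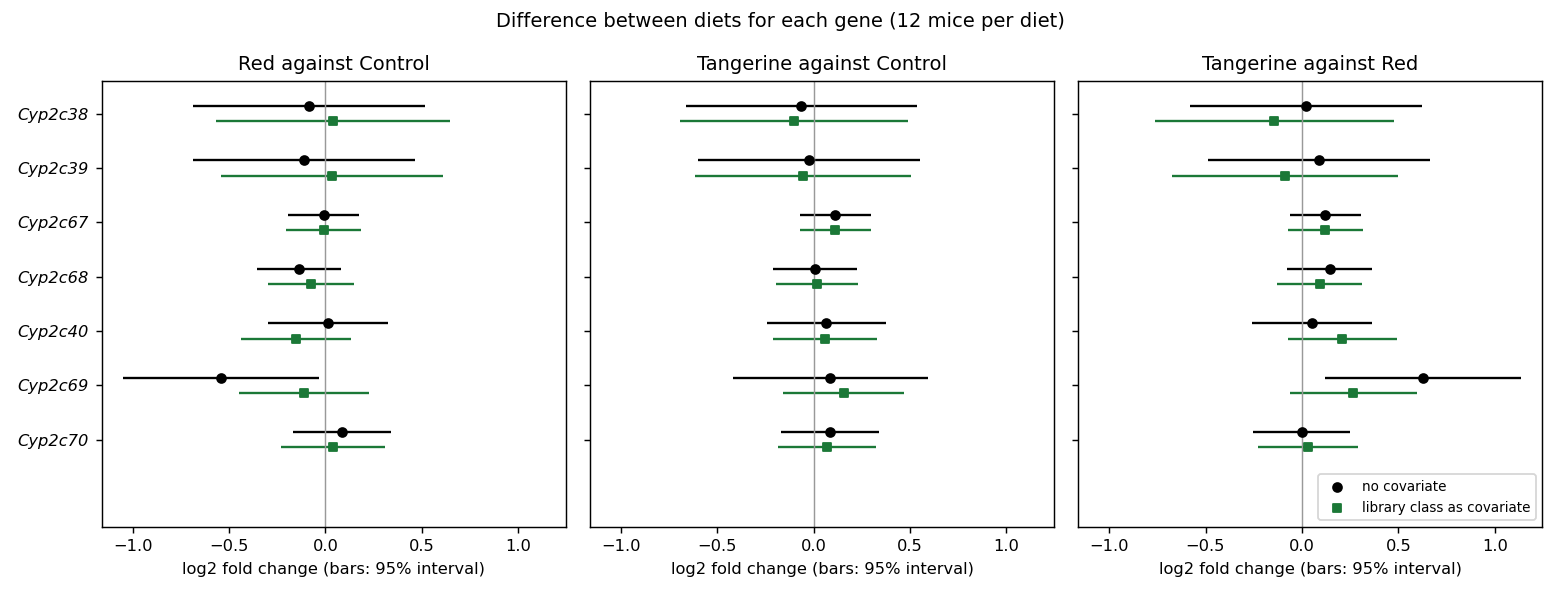
Log2 fold change of each gene between diets (12 mice each) with its 95% interval, from the fit without and the fit with library class. Only Cyp2c69 has intervals that leave out 0, for Red against Control and Tangerine against Red without class, and neither does so with class in the fit.

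Cyp2c67 and Cyp2c70, the abundant pair, did not pass the test in any diet comparison. Cyp2c67 ran from 390 CPM through a median of 488 to 703 in Control, from 377 through 507 to 701 in Red, and from 424 through 588 to 667 in Tangerine. Cyp2c70, the muricholic acid enzyme, ran from 424 through 547 to 784 CPM in Control, from 380 through 610 to 848 in Red, and from 390 through 593 to 859 in Tangerine. The diets overlapped over nearly their whole range. For Cyp2c67, 10 of 12 Tangerine mice lay above the Control median, and the log2 fold change was 0.11 (SE 0.09, 95% interval -0.07 to 0.30). For Cyp2c70 it was 0.09 in Red (interval -0.17 to 0.34) and 0.08 in Tangerine (-0.17 to 0.34), so a rise or fall of more than 0.34 on the log2 scale lay outside both intervals.

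Cyp2c68 and Cyp2c40, of the 4-gene stretch, did not pass the test either. Cyp2c68 ran from 129 CPM through a median of 157 to 252 in Control, from 113 through 149 to 219 in Red, and from 130 through 163 to 234 in Tangerine. Its log2 fold change was -0.14 in Red against Control (95% interval -0.36 to 0.08) and 0.14 in Tangerine against Red (-0.08 to 0.36). Cyp2c40, the arachidonic acid hydroxylase, ran from 33.04 through 43.5 to 75.8 CPM in Control, from 26.9 through 46.6 to 72.7 in Red, and from 33.6 through 43.6 to 68.5 in Tangerine. All 12 Tangerine mice lay inside the Control range. Its lowest library was Red mouse 186, the library with the T cell transcripts.

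Cyp2c38 and Cyp2c39, the arachidonic acid epoxygenases, did not pass the test in any comparison, and in Red their range went beyond the Control range at both ends. Cyp2c39, also a retinoic acid hydroxylase, ran from 45.02 CPM through a median of 87.9 to 154 in Control, from 17.4 through 83.8 to 180 in Red, and from 48.0 through 73.2 to 166 in Tangerine. Cyp2c38 ran from 26.8 through 41.9 to 91.6 CPM in Control, from 9.79 through 41.5 to 101 in Red, and from 23.9 through 35.97 to 96.2 in Tangerine. Red mouse 156 was the lowest and Red mouse 177 the highest of all mice for both genes. For each gene, 4 of 12 Red mice lay below every Control mouse and 1 above every Control mouse. The difference in spread between diets was not tested. The log2 fold change of Cyp2c38 in Red against Control was -0.09 (SE 0.30, interval -0.69 to 0.51) and that of Cyp2c39 was -0.11 (SE 0.28, interval -0.69 to 0.46). These are the widest intervals among the 7 genes, and for Cyp2c38 the interval runs from 0.621-fold to 1.43-fold.

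Cyp2c69, the least abundant of the 7, was the one gene whose diet means stood apart. It ran from 4.76 CPM through a median of 14.8 to 26.5 in Control, from 4.95 through 8.53 to 18.1 in Red, and from 6.85 through 15.2 to 29.2 in Tangerine. Only 2 of 12 Red mice lay above the Control median, and 11 of 12 Tangerine mice lay above the Red median, yet the ranges overlapped. The log2 fold change was -0.54 for Red against Control (SE 0.25, 95% interval -1.05 to -0.03) and 0.63 for Tangerine against Red (SE 0.25, interval 0.12 to 1.14). The adjusted p was 0.348 and 0.211 by edgeR. This difference moved with library class. With class as a covariate in edgeR, Red against Control was -0.11 (interval -0.45 to 0.22, adjusted p = 0.795) and Tangerine against Red was 0.27 (adjusted p = 0.411). Within class A, Cyp2c69 was at 18.7 CPM ± 5.16 in Control (n = 8), 14.4 ± 2.90 in Red (n = 4) and 18.6 ± 5.15 in Tangerine (n = 8). Within class B it was at 6.64 ± 1.52 in Control (n = 4), 7.98 ± 2.54 in Red (n = 8) and 9.80 ± 2.07 in Tangerine (n = 4). Red was thus the lowest diet in class A and the middle one in class B.

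Between the classes, Cyp2c69 and its near-identical neighbour Cyp2c40 differed in opposite directions. Cyp2c69 was at 17.8 CPM ± 4.90 in class A (n = 20) and 8.10 ± 2.38 in class B (n = 16), a log2 difference of -1.08 that exceeds in size that of 99.5% of tested genes. Cyp2c40 was at 42.2 ± 10.1 and 54.4 ± 12.8, a log2 difference of 0.43. The ratio of Cyp2c40 to Cyp2c69 separated the classes without overlap, at 2.01 to 3.12 in class A and 5.30 to 11.1 in class B. Their sum was 59.96 CPM ± 14.8 in class A and 62.5 ± 14.5 in class B, a difference smaller than the spread. The ratio of Cyp2c39 to Cyp2c38 ran from 1.69 to 2.15 in class A and from 1.68 to 2.05 in class B. Cyp2c67 had the same mean in both classes, 540 ± 83.2 and 533 ± 89.9 CPM. Cyp2c38 and Cyp2c39 were lower in class B by 0.47 and 0.50 on the log2 scale, within a wide spread. The classes were read from the data and are given here as a description, with no test.

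The 7 genes differed widely in how much they varied between mice of 1 diet. With diet means removed, the SD of log2 CPM was 0.77 for Cyp2c38 and 0.75 for Cyp2c39, more than for 98.1% and 97.9% of tested genes. The median gene had 0.243. Cyp2c69 followed at 0.65, a spread that includes the class difference, then Cyp2c40 at 0.39, Cyp2c70 at 0.32, Cyp2c68 at 0.27 and Cyp2c67 at 0.23. Among genes of like abundance, the SD of Cyp2c39 exceeded that of 99.3% and the SD of Cyp2c67 that of 62.8%. The highest mouse had 10.3 times the Cyp2c38 of the lowest, and 10.4 times the Cyp2c39, against 1.86 times for Cyp2c67.

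Covariation between mice was tested for all 21 pairs of the 7 genes, on log2 CPM with diet means removed, by permuting mice within diets (100000 permutations, two-sided). Of the 21 pairs, 13 passed an adjusted p of 0.05 over the 21 by Pearson's r (11 positive and 2 negative), and 10 passed by Spearman's rho. With the mean of each diet and class removed, 10 pairs passed (8 positive and 2 negative), 10 passed by Spearman's rho, and 9 passed both ways. The 10 pairs were Cyp2c38 with Cyp2c39, all 6 pairs within the 4-gene stretch, Cyp2c70 with Cyp2c38 and with Cyp2c39 (both negative), and Cyp2c67 with Cyp2c70. The other 11 pairs had r between 0.03 and 0.38.

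**Figure D3:**
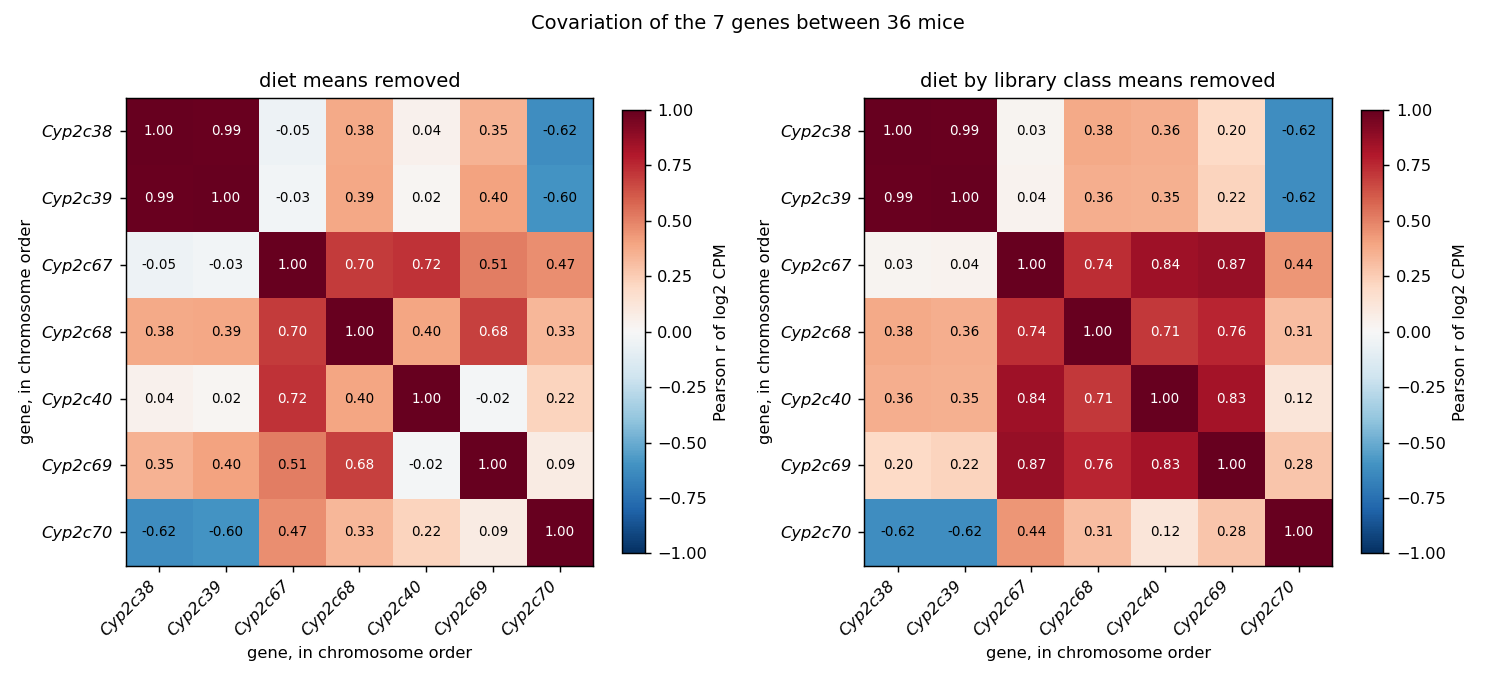
Pearson r of log2 CPM for the 21 pairs over 36 mice, genes in chromosome order, with diet means removed and with diet by class means removed. After removal of class the 4 genes of the stretch correlate at 0.71 to 0.87 with each other, Cyp2c38 and Cyp2c39 at 0.99, and Cyp2c70 at -0.62 with both.

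Cyp2c38 and Cyp2c39 varied together in almost fixed proportion. Pearson's r was 0.99 (permutation adjusted p = 0.000105) and Spearman's rho 0.98 (adjusted p = 0.000105) over 36 mice, and r was 0.99 without the 2 mice farthest from the median, Red 156 and Red 157. It was 0.96 in Control, 0.996 in Red and 0.99 in Tangerine, and 0.99 in class A and 0.996 in class B. Each was the closest of all 14067 other tested genes to the other. Cyp2c39 was 1.68 to 2.15 times as high as Cyp2c38 in CPM in every mouse, while both levels ranged over about 10.3-fold. The transcripts share 6.88% of 50-base stretches of Cyp2c38 and no 100-base stretch.

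Cyp2c70 ran opposite to that pair. Its r with Cyp2c38 was -0.62 (permutation adjusted p = 0.000672) and its rho -0.61 (adjusted p = 0.000578), and r was -0.55 without the 2 mice farthest from the median. With class removed r was again -0.62 (adjusted p = 0.000467), at -0.37 in class A and -0.80 in class B. By diet it was -0.23 in Control, -0.69 in Red and -0.75 in Tangerine. With Cyp2c39 the values were -0.60 pooled and -0.62 with class removed. Red mouse 177, the highest for Cyp2c38 at 101 CPM, was the lowest of all for Cyp2c70 at 380. Red mice 156 and 157, the lowest for Cyp2c38, had 775 and 848 CPM of Cyp2c70. The ratio of Cyp2c70 to Cyp2c39 spanned 2.11 to 44.5 across mice. Tested in subsets, Cyp2c38 with Cyp2c70 passed in Tangerine (permutation adjusted p = 0.0193) and in class B (0.00218). It did not pass in Control (0.682), in Red (0.0697) or in class A (0.170), and whether it differs between diets was not tested.

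**Figure D4:**
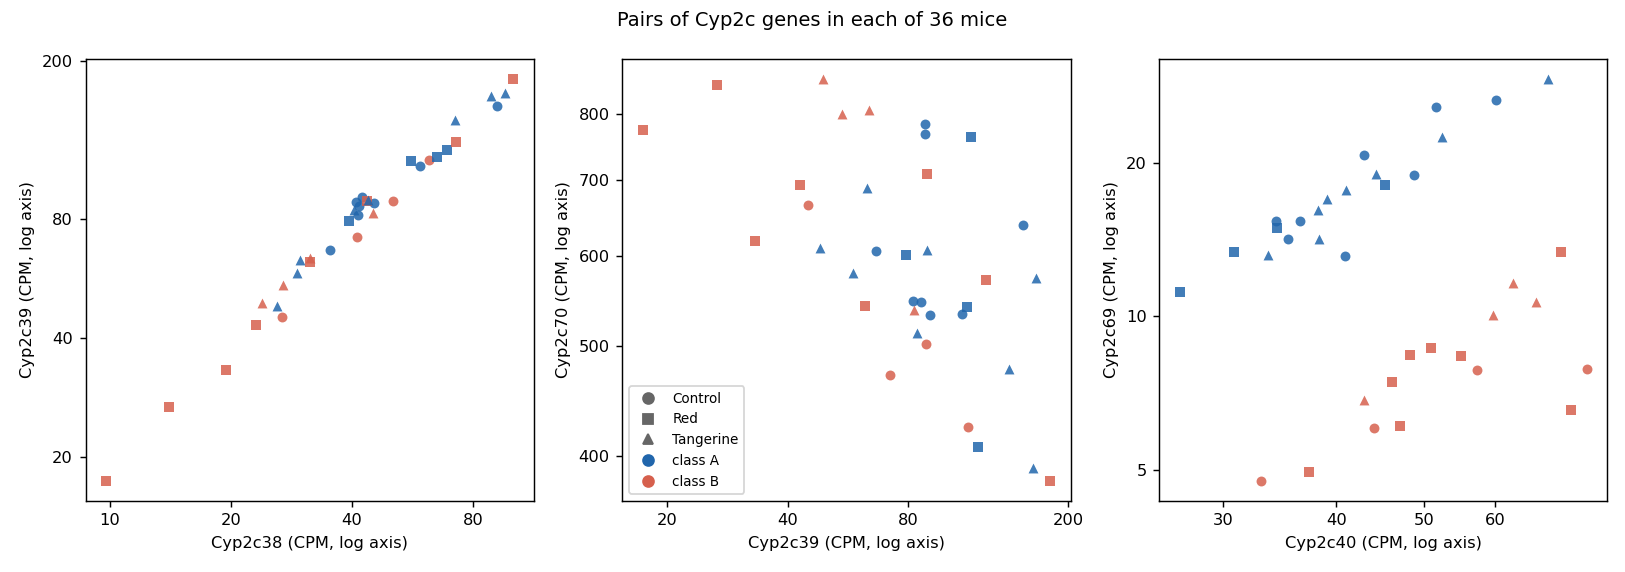
Level of 1 gene against another (CPM, log axes) in each of 36 mice, with diet as marker shape and library class as colour. Cyp2c38 and Cyp2c39 follow 1 line, Cyp2c70 falls as Cyp2c39 rises, and Cyp2c40 against Cyp2c69 forms 2 parallel bands, 1 for each class.

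Within the 4-gene stretch the pairs had to be read inside the classes. Cyp2c40 and Cyp2c69 had r = -0.02 and rho = -0.04 with diet means removed. Within class A r was 0.92 (20 mice) and within class B 0.74 (16 mice). With diet by class means removed r was 0.83 and rho 0.85 (permutation adjusted p = 3e-05 and 5.25e-05), and r was 0.84 without the 2 farthest mice. Cyp2c67 with Cyp2c69 had r = 0.51 pooled and 0.87 with class removed, at 0.89 in class A and 0.84 in class B. Cyp2c67 with Cyp2c40 had r = 0.72 pooled and 0.84 with class removed. The pairs with Cyp2c68 had 0.74 with Cyp2c67, 0.76 with Cyp2c69 and 0.71 with Cyp2c40 after class was removed. These 6 pairs all had a permutation adjusted p of 3e-05, from the smallest p that 100000 permutations can give. The 4 transcripts share 43.3% to 72.1% of their 50-base stretches with another gene, and the part of shared reads in these correlations was not tested. With diet means alone removed, Cyp2c38 and Cyp2c39 passed with Cyp2c68 (r = 0.38 and 0.39, permutation adjusted p = 0.0406 and 0.0381). They also passed with Cyp2c69 (r = 0.35 and 0.40, permutation adjusted p = 0.0406 and 0.0214). After class was removed neither passed with any gene of the stretch, although they lie next to it on the chromosome. Their r with Cyp2c68 was then 0.38 and 0.36, at 0.64 and 0.61 in class A and 0.19 and 0.20 in class B. With Cyp2c40 it was 0.36 and 0.35, and with Cyp2c69 0.20 and 0.22. Cyp2c67 with Cyp2c70, which share no 50-base stretch, had r = 0.44 (permutation adjusted p = 0.0338) and 0.34 without the 2 farthest mice.

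**Figure D5:**
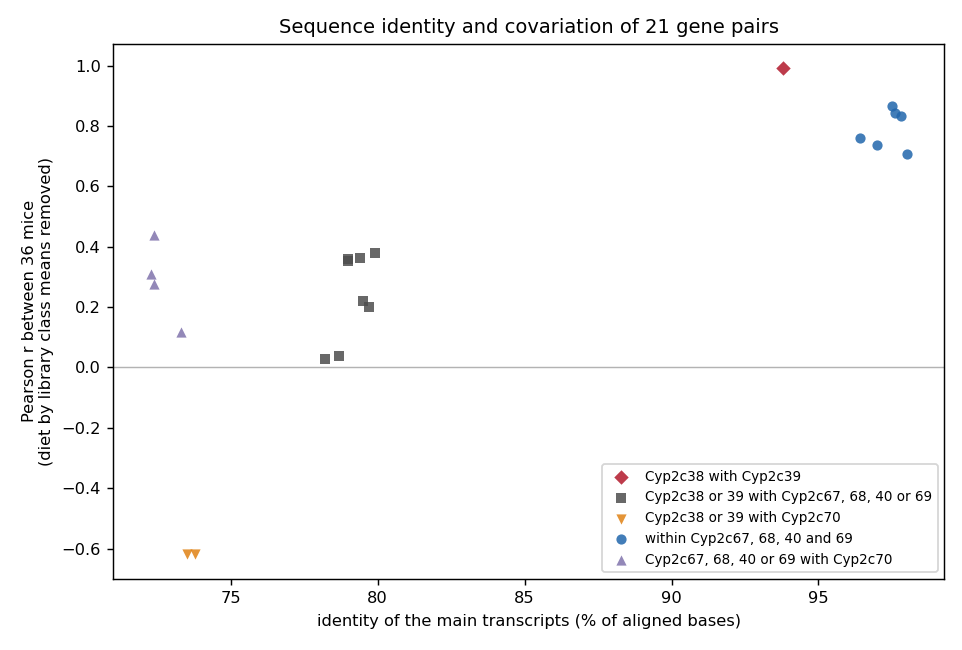
Identity of the main transcripts (% of aligned bases) against Pearson r between 36 mice (diet by class means removed) for the 21 gene pairs. The 7 pairs above 93% identity lie at r of 0.71 to 0.99, and the 14 pairs below 80% at -0.62 to 0.44.

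Likeness to other genes was measured by Pearson's r over the 36 mice with diet means removed, among tested genes averaging 1 or more in log2 CPM. After each other, Cyp2c38 and Cyp2c39 were closest to Aldh3a2, a fatty aldehyde dehydrogenase (r = 0.89 and 0.88), and to Cyp3a11, the main PXR-inducible CYP3A gene (r = 0.88 for both). With class removed, Cyp4a10, a fatty acid hydroxylase gene, came next after the partner at 0.88 for both. The closest genes to Cyp2c70 were Cyp4f14 (0.78), Rbbp4 (0.75) and Nudt7 (0.74), and with class removed Nudt7 (0.79), Selenbp2 (0.77) and Gstp1 (0.76). Nudt7 encodes a peroxisomal coenzyme A hydrolase and Gstp1 a glutathione transferase. For Cyp2c69 the closest were Gm28439, St6gal2 and Ptges3 (each 0.88), all of which became more distant than Cyp2c67, Cyp2c40 and Cyp2c68 once class was removed. For Cyp2c40 they were Tpt1-ps6 (0.78), Ftsj1 (0.78) and Mrpl22 (0.77), and with class removed Cyp2c67, Cyp2c69 and Otud6b (0.75). The closest to Cyp2c67 were Cyp2c40, Cyp2c68 and Serpina3m (0.62), and with class removed its 3 neighbours of the stretch. Those to Cyp2c68 were Cyp2c67, Mcfd2 (0.68) and Cyp2c69, and with class removed again the 3 neighbours. So after removal of class each of the 4 genes had 2 or 3 of the other genes of the stretch as its closest among 14067.

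Genes that differ between male and female mouse liver moved with Cyp2c38, Cyp2c39 and Cyp2c70, although all mice were male. The summed level of 21 male-biased genes had r = -0.80 with Cyp2c38, -0.79 with Cyp2c39 and 0.78 with Cyp2c70 over 36 mice with diet means removed (permutation adjusted p = 0.00014 each, over 42 tests of 6 measures). With class removed the values were -0.78, -0.77 and 0.79, and the permutation adjusted p was 0.00021, 0.00021 and 0.00042. Spearman's rho with class removed was -0.73, -0.73 and 0.76, and without the 2 farthest mice r was -0.83, -0.82 and 0.77. In Control mice r with Cyp2c38 was -0.64, in Red -0.84 and in Tangerine -0.92. The summed female-biased genes had r = 0.57 with Cyp2c38, 0.55 with Cyp2c39 and 0.56 with Cyp2c68 after class was removed (permutation adjusted p = 0.0116, 0.0168 and 0.0105). With Cyp2c38 and Cyp2c39 this was 0.77 and 0.76 in Red, 0.79 and 0.78 in Tangerine, and -0.13 and -0.11 in Control. The low Control values belong to the summed level. By the mean log2 level of the same list, a measure added after seeing the data, r in Control was 0.72 and 0.74.

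Gene by gene, and with class removed, 13 of the 21 male-biased genes had r of -0.5 or lower with Cyp2c38 and 12 of 21 with Cyp2c39, against 1.61% and 1.51% of all tested genes. Of 22 female-biased genes, 12 had r of 0.5 or higher with each of them, against 2.67% and 2.63%. For Cyp2c70 the pattern was turned over. Of the male-biased genes 12 of 21 had r of at least 0.5 with it (1.85% of all genes), and 7 of 22 female-biased genes had r of -0.5 or lower (1.66%). Examples, chosen after their values were seen, are the female-biased Cyp3a44, Cyp3a16 and Cyp2b9 at r = 0.87, 0.84 and 0.74 with Cyp2c39. Among male-biased genes, Gstp1, Selenbp2 and Mup7, a major urinary protein gene, had r = -0.76, -0.74 and -0.72 with Cyp2c39. Cyp4a12a and Cyp4a12b, male-biased fatty acid hydroxylases, were exceptions at 0.26 and 0.13. Exceptions among female-biased genes were Lifr at -0.48 and Fmo4 at -0.05 with Cyp2c39. Lifr was also the 1 of 22 at 0.5 or more with Cyp2c70 (0.66). The genes of the 4-gene stretch had at most 2 genes of either list past these limits. At 0.5 or higher with Cyp2c67, Cyp2c68, Cyp2c40 and Cyp2c69 stood 0.69%, 0.547%, 3.26% and 1.34% of all genes, and at -0.5 or lower 0.647%, 0.618%, 1.78% and 1.17%. None of the 21 male-biased genes was called in any diet comparison, and of the female-biased genes only Ntrk2, a neurotrophin receptor, was. It fell in Red against Control by 1.21 on the log2 scale (edgeR adjusted p = 0.00367) and was higher in Tangerine than in Red by 0.94 (adjusted p = 0.0152), with r of 0.32 with Cyp2c38. In bulk liver RNA, fewer cells of a type and less RNA per cell cannot be told apart.

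None of the genes of bile acid metabolism or of retinoic acid metabolism was called between diets, and several followed Cyp2c38, Cyp2c39 and Cyp2c70 between mice. Of 24 bile acid genes tested, 0 were called in Red against Control by edgeR, and 5 had an unadjusted p under 0.05, beside 0.149% and 13.3% of all genes. With class removed, the bile acid genes at r of 0.5 or more with Cyp2c38 were Abcb4, Abcc3, Cyp8b1 and Hsd17b4 (0.65, 0.68, 0.53 and 0.69). Abcb4 and Abcc3 encode canalicular and basolateral transporters, and Cyp8b1 the sterol 12-alpha-hydroxylase. Cyp7b1, the oxysterol hydroxylase and itself on the male-biased list, had r = -0.66 with Cyp2c38 and 0.69 with Cyp2c70. Cyp2c70 was also inverse to Abcc3 (-0.53) and Hsd17b4 (-0.56). Of 14 retinoic acid genes tested, 0 were called between Red and Control by edgeR, and 3 had an unadjusted p under 0.05, beside the same shares. Aldh1a1, Rdh10 and Rdh16, enzymes on the path from retinol to retinoic acid, had r = 0.71, 0.69 and 0.65 with Cyp2c39. These counts of 4 in 24 and 3 in 14 stand beside 2.67% and 2.63% of all genes at r of 0.5 or more with Cyp2c38 and Cyp2c39.

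Of 26 regulators and electron donors of P450 genes, such as CAR, PXR, HNF4A, STAT5 and P450 oxidoreductase, none had r past 0.5 in size with Cyp2c38 or Cyp2c39, with diet means removed or with class removed too. With diet means alone removed, Ghr (0.76), Cyb5r3 (-0.71), Nr3c1 (0.61), Ahr (0.59) and Onecut2 (0.57) passed that limit with Cyp2c69, and none did with class removed. These 4 positive and 1 negative of 26 stand beside 11.6% and 5.22% of all genes, shares near their own (15.4% and 3.85%). In the same way Nr3c1 was at -0.60 with Cyp2c40, Cyb5r3 at -0.50 with Cyp2c68 and Nfe2l2 at -0.52 with Cyp2c70. Of all genes 5.16%, 1.24% and 1.65% were at -0.5 or lower with these 3, with diet means alone removed. With class removed, Rxra was at 0.53 with Cyp2c40 and Foxa3 at 0.50 with Cyp2c67. Each was 1 of 26 (3.85%), beside 3.26% and 0.69% of all genes at 0.5 or higher with these 2 genes. For Cyp2c40 that is near the share of all genes. Cebpa, a liver-enriched transcription factor gene, was the only one called between diets, higher in Tangerine than in Red by 0.31 on the log2 scale (edgeR adjusted p = 0.0452), where 1.71% of all genes were called. Of 16 circadian genes, Npas2, Clock, Dbp, Arntl, Cry1, Nr1d2 and Tef were called in Tangerine against Red by edgeR, 3 higher and 4 lower. The clock score, their leading component, averaged -2.59 (SD 2.37) in Red, 0.82 (SD 3.03) in Control and 1.76 (SD 2.30) in Tangerine. Between mice, the clock score had r between -0.11 and 0.22 with the 7 genes after class was removed, and no pair passed the permutation test. Summed periportal genes lay between -0.14 and 0.02. Within the classes their r was negative in A and positive in B for every gene but Cyp2c70 (0.06 and -0.03). It was -0.50 in class A and 0.53 in class B for Cyp2c68, -0.48 and 0.38 for Cyp2c38, and -0.48 and 0.41 for Cyp2c39. Whether the classes differ in this was not tested. The summed female-biased genes had r = 0.48 with Cyp2c69 with diet means removed (permutation adjusted p = 0.0205), and 0.35 with class removed (adjusted p = 0.168). Summed pericentral genes had 0.47 with Cyp2c69 with diet means removed (permutation adjusted p = 0.0244), and 0.46 with class removed (adjusted p = 0.0591).

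Among the other Cyp2c genes, Cyp2c29 rose in both tomato diets, by 0.81 on the log2 scale in Red (SE 0.09, edgeR adjusted p = 2.17e-06) and 0.57 in Tangerine (SE 0.09, adjusted p = 0.00476). Cyp2c53-ps was also called in Red against Control, and Cyp2c55 was lower in Tangerine than in Red by 0.54 (edgeR adjusted p = 0.0260). Across mice, with diet by class means removed, Cyp2c37, Cyp2c50, Cyp2c54 and Cyp2c29 followed Cyp2c38 at r = 0.81, 0.77, 0.72 and 0.62. Cyp2c23 was at 0.54 with Cyp2c69 and 0.51 with Cyp2c67 but at -0.03 with Cyp2c38.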

How the data were processed

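The aligner and counter are not given in the sources used here. Per the labels' protocols, total RNA from preserved liver was purified on Qiagen columns, and libraries were made with a strand-marking NEXTflex kit. The authors deposited whole-number read counts per Ensembl gene and library. The submitters' processing notes name FastQC, Trimmomatic, edgeR and the build GRCm38.p6.

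Identifiers were matched to GENCODE M21 symbols (53620 of 53715 matched). Counts were filtered with filterByExpr, scaled by TMM and fitted in 1 edgeR model over 36 libraries (edgeR 4.0.16 in R 4.3.3, robust quasi-likelihood test), with Benjamini-Hochberg adjustment over 14068 genes. The fit was tested on simulated counts. Levels are CPM on TMM-scaled totals; log2 CPM has a prior count of 2. Covariation used permutation within diets (scipy 1.17.1, numpy 2.4.6). Promoter windows are RefSeq's for GRCm38.p6. P-values measure the spread between the numbered mice. No 2 libraries matched within sampling noise.

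The 7 genes and the gene lists were chosen with earlier results of these data known. The text names all 7 genes, the 3 most correlated tested genes for each, every other Cyp2c gene above the filter, list genes called in a diet comparison, and up to 3 more per list by smallest p. List genes named for their correlation with the 7 genes fall outside that rule, since their values were known when they were picked. Alternatives were DESeq2 1.42.0, limma 3.58.1 (voom with sample weights), sva 3.50.0, other scaling, filters, covariates and left-out mice. Library class, GC slope and length slope, and the means over classes, were chosen after seeing the data. The authors' identifier of Cyp2c69 has an older version number than the annotation.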

Additional observations from a re-analysis of the deposited data

How the results depend on the processing

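Over 14 other settings and 36 fits without 1 mouse, 0 of the 7 genes were called in 247 of 248 diet comparisons. Each setting or fit gave several of these comparisons from the same mice, so they are not separate checks. The exception was limma-voom with sample weights, where 1 gene, Cyp2c69, was called in Red against Control (log2 fold change -0.69, adjusted p = 0.0472), beside 10.7% of all genes. Without 1 mouse the number called stayed at 0. Cyp2c69 changed sign in 3 comparisons. In Red against Control it was 0.027 with GC and length slopes as covariates and 0.27 in class B alone. In Tangerine against Control it was -0.014 by limma-voom, -0.0073 in class A alone, and -0.030 to 0.20 leaving out 1 mouse. For both tomato diets against Control it was 0.014 with 5 surrogate variables, 0.14 with the slopes, 0.021 with class and 0.42 in class B alone. The 13 correlated pairs became 4 in Control, 3 in Red and 6 in Tangerine mice alone (12 mice each), and 8 to 14 leaving out 1 mouse, with 8 without Tangerine 225. The r of Cyp2c40 with Cyp2c69 turned positive with diet means kept (0.0071), without Red 186 and Tangerine 216 (0.011), in Control (0.096) and Tangerine alone (0.060), with slopes regressed out (0.67), with class removed (0.83) and in class A (0.92) or B alone (0.74), and was -0.12 to 0.051 leaving out 1 mouse. The 8 relations to library measures became 2 in class A and 3 in class B alone, and 7 to 10 leaving out 1 mouse. The causes were not tested. Cyp2c69 had the fewest counts of the 7 genes, 121 to 755 per library. No paired analysis was possible because no mouse number occurs in more than 1 diet.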

Other observations

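Some pericentral and periportal hepatocyte genes were called between diets, in the same fit in which none of the 7 Cyp2c genes was. Of 17 pericentral genes, Cyp1a2 was higher in Tangerine than in Control, and Cyp1a2, Lect2 and Gulo were higher in Tangerine than in Red (edgeR), where 0.0142% and 1.71% of all genes were called. Of 18 periportal genes, Uox and Arg1 fell in Red against Control, where 0.149% of all genes were called, and Uox, Arg1 and Cps1 were higher in Tangerine than in Red. With Cyp2c38, and diet by class means removed, the pericentral genes past 0.5 in size were Aldh1a1 (0.72), Cpox (0.70) and Cyp1a2 (-0.55), and with Cyp2c70 Cyp1a2 (0.64), Gulo (0.62), Aldh1a1 (-0.54), Axin2 (-0.51) and Cpox (-0.51). Cyp26a1, a retinoic acid hydroxylase gene, had r = -0.58 with Cyp2c67 and -0.52 with Cyp2c40.

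Averaging log2 levels in place of summing them weights all list genes alike. On that measure, added after seeing the data, the female-biased list had r = 0.92 with Cyp2c38, 0.91 with Cyp2c39 and -0.66 with Cyp2c70 over 36 mice with diet by class means removed. These values stand beside 0.57, 0.55 and -0.22 for the summed levels. The mean log2 level of the pericentral list had r = 0.62 with Cyp2c38, and its summed level, the planned measure, had 0.34 (permutation adjusted p = 0.168).

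Cyp2c69 had r = -0.82 with the GC slope of the library when only diet means were removed, and -0.21 with class removed. Cyp2c40 had 0.47 and 0.16 in the same way, and Cyp2c68 had -0.44 and -0.26. With the slope of log2 level on transcript length, Cyp2c69 had r = 0.11 with diet means removed and -0.48 with class removed (permutation adjusted p = 0.0135). For Cyp2c40 and the length slope the values were -0.50 and -0.34.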
